A study of Homo sapiens with 4 samples.

Results

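The genes described are 8 components of the extrinsic route to apoptosis: the death receptor genes FAS, TNFRSF10A and TNFRSF10B, the adaptor gene FADD, the initiator caspase genes CASP8 and CASP10, and the inhibitor genes CFLAR and XIAP. They were chosen by symbol, and all 8 were among the 37450 features of the count table. The cells were 143B, an established human osteosarcoma line. RNA was taken on day 2 after lipid-mediated delivery of a small interfering RNA, in 2 libraries of cells that received an siRNA without a target gene (siNC, genotype label WT) and 2 of cells that received siRNA directed at CBX3 (siCBX3, genotype label CBX3 knockdown). CBX3 encodes the heterochromatin protein HP1γ. All libraries share the line and the transfection, no untransfected cells are among these samples, and nothing in the labels ties the replicates to separate cultures. All p-values below rest on the spread between these libraries, which may be technical. Those of edgeR pool that spread across genes.

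Death receptors are cell surface proteins of the tumour necrosis factor receptor family whose cytoplasmic death domain recruits the adaptor FADD once a ligand has bound. FADD gathers procaspase-8 or procaspase-10, which activate one another in that complex and then cleave the effector caspases. FLIP, the product of CFLAR, resembles caspase-8 without its protease activity and sets how far this step goes, and XIAP binds and blocks the caspases further down. FAS answers to Fas ligand, and TNFRSF10A (DR4) and TNFRSF10B (DR5) to TRAIL, a ligand studied as a way to kill tumour cells, osteosarcoma among them.

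Total counts lay between 36509298 and 40336907 per library. CBX3 itself stood at 523 ± 22.2 CPM (counts relative to library size, scaled by TMM factors, mean ± SD, n = 2) in siNC and at 57.2 ± 0.165 CPM in siCBX3, so the targeted gene was low in the libraries labelled as the knockdown. Markers fixed for the cell type were mixed: VIM and SPARC were abundant, while ALPL had at most 4 counts in any library. The 8 osteosarcoma and mesenchymal markers summed to 1037 and 1071 CPM in siNC and to 3232 and 3144 CPM in siCBX3. Most of these sums came from VIM and SPARC. VIM went from 704 ± 74.9 to 1420 ± 7.60 CPM and SPARC from 321 ± 51.6 to 1732 ± 69.6 CPM. Of the 7 tested, 4 were called higher and 0 lower, while THY1 and PDGFRB were lower on average but not called. The 6 epithelial markers, nearly all of it KRT8 and KRT18, summed to 1293 and 1289 CPM in siNC and to 785 and 798 CPM in siCBX3, with CDH1 at 4 to 8 counts. The 4 endothelial markers summed to at most 2.89 CPM. The 9 leukocyte markers summed to 480 and 441 CPM in siNC and to 691 and 629 CPM in siCBX3. CD68 and NCAM1 carried these sums but moved in opposite directions. CD68 rose from 413 ± 23.7 to 626 ± 44.5 CPM, and NCAM1 fell from 45.6 ± 3.59 to 31.6 ± 0.119 CPM. PTPRC had 4 to 18 counts and CD3E, CD79A and KLRD1 at most 5. The part of these shifts in the results below was not tested. In bulk RNA, a change in the number of cells that express a gene and a change in RNA per cell cannot be told apart.

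With CBX3 depleted, the gene of the Fas receptor fell and the genes of the adaptor, of caspase-8 and of both inhibitors rose, while neither TRAIL receptor gene passed the test. FAS, with the largest change of the 7 genes that could be tested, was 2.63-fold lower. CFLAR was 1.83-fold higher, XIAP 1.47-fold, CASP8 1.36-fold and FADD 1.28-fold (mean CPM, n = 2 per group; the errors follow with each gene). CASP10 had at most 7 counts in any of the 4 libraries. Of the 7 genes with enough counts to test, 5 were called changed (adjusted p under 0.05, edgeR quasi-likelihood test), 4 higher and 1 lower. Among all 20999 genes tested, 48.4% were called, 24.4% higher and 24.0% lower, so a call alone was common in this comparison. The median log2 fold change of the 7 genes was 0.35, against -0.01 over all genes tested. All 7 had no overlap between the libraries of the 2 groups, as had 73.9% of all genes tested.

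**Figure D1:**
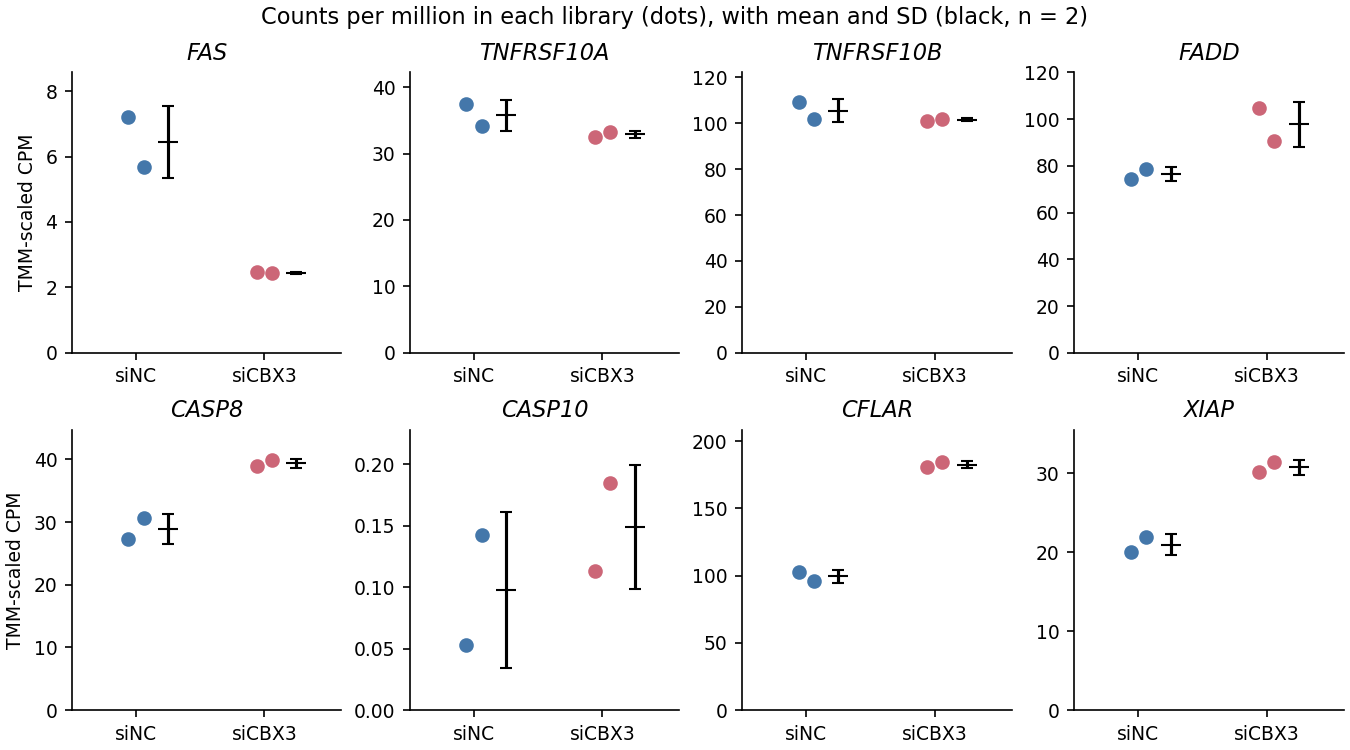
TMM-scaled counts (CPM, vertical axes, each from 0) of the 8 genes in the siNC (blue) and siCBX3 (red) libraries, 1 dot per library, with the mean and SD of each group in black (n = 2). FAS drops from 6.45 to 2.45 CPM on average and CFLAR climbs from 99.6 to 183 CPM, while the CASP10 dots of the groups overlap near 0.

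The receptors did not move together. FAS lies on the plus strand of chromosome 10, from 88990582 to 89015785 (GRCh38, as for all positions here). The siNC libraries held 272 and 239 FAS counts and the siCBX3 libraries 87 and 92. These correspond to 7.22 and 5.67 CPM in siNC and to 2.47 and 2.43 CPM in siCBX3. Both siCBX3 libraries were lower than either siNC library, and the gap was larger than the difference within siNC. The log2 fold change was -1.39 (SE 0.18, 95% interval -1.77 to -1.02, adjusted p 7.33e-07, edgeR), and 4.12% of all tested genes had a value as low or lower. On log2 RPKM plus 1 it was -0.75 and still called. FAS shares 380 of its 3750 exon bases with ACTA2 on the opposite strand, the smooth muscle actin gene. ACTA2 was counted 163 and 164 times in the siNC libraries and 85 and 123 times in the siCBX3 libraries, with a log2 fold change of -0.53 (adjusted p 0.0283, edgeR). ACTA2 missed the threshold when siNC replicate 1 (adjusted p 0.109) or siCBX3 replicate 1 (0.254) was left out, with DESeq2 (0.111) or on RPKM plus 0.1 (0.0576). How far reads of either gene reach the count of the other was not tested; STAMBPL1, the next gene before FAS, was not called.

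The TRAIL receptor genes were expressed at higher levels than FAS and differed little between the groups. TNFRSF10B (chromosome 8, 23020133 to 23069179, minus strand) stood at 109.0 and 101.9 CPM in siNC and at 100.9 and 101.8 CPM in siCBX3. The higher siCBX3 library nearly reached the lower siNC library. Its log2 fold change was -0.06 (SE 0.08, 95% interval -0.21 to 0.10, adjusted p 0.563, edgeR). TNFRSF10A (chromosome 8, 23190452 to 23225126, minus strand) stood at 37.4 and 34.1 CPM in siNC and at 32.5 and 33.3 CPM in siCBX3. Both siCBX3 values were lower, but the gap to the nearest siNC library was smaller than the difference between the siNC libraries. Its log2 fold change was -0.12 (SE 0.09, 95% interval -0.30 to 0.06, adjusted p 0.267, edgeR). The intervals leave room for small changes in either gene and hold none as large as that of FAS. Both genes share exon bases with features on the opposite strand. For TNFRSF10A these are RP11-1149O23.2 (224 of 2951 bases) and RP11-1149O23.3 (266), neither of them called. For TNFRSF10B it is RHOBTB2 (67 of 5158 bases), with a log2 fold change of -0.32 (adjusted p 0.0120, edgeR). The call of RHOBTB2 was lost without siCBX3 replicate 1 (log2 fold change -0.31) or siCBX3 replicate 2 (-0.32). How far reads of these features reach the counts of the receptor genes was not tested.

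FADD, the adaptor that links each of these receptors to the caspases, had the highest level per exon length of the 8 genes. FADD (chromosome 11, 70203163 to 70207390, plus strand) was counted 2810 and 3312 times in the siNC libraries and 3687 and 3442 times in the siCBX3 libraries. In scaled units these were 74.6 and 78.6 CPM in siNC and 105 and 90.8 CPM in siCBX3. The siCBX3 libraries were higher but differed from each other by more than the siNC libraries did. FADD rose by 0.35 on the log2 scale (SE 0.08, 95% interval 0.18 to 0.52, adjusted p 0.000935, edgeR). The call ended without siCBX3 replicate 1, at a log2 fold change of 0.24 (adjusted p 0.0757), and on RPKM plus 1 or plus 0.1. RP11-805J14.5, a feature on the opposite strand, covers 1011 of the 1841 exon bases of FADD (54.9%). It was not called, at a log2 fold change of 0.24 (adjusted p 0.0739, edgeR), but passed the threshold without siNC replicate 2 (0.30, adjusted p 0.0483). How far reads of this feature reach the count of FADD was not tested.

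The initiator caspases were unlike in level. CASP8 (chromosome 2, 201233443 to 201287711, plus strand) stood at 27.3 and 30.7 CPM in siNC and at 38.9 and 39.8 CPM in siCBX3. The siCBX3 libraries lay close together, above both siNC libraries. CASP8 rose by 0.44 on the log2 scale (SE 0.09, 95% interval 0.26 to 0.62, adjusted p 0.000218, edgeR). It shares no exon bases with another feature of the table. CASP10 (chromosome 2, 201182881 to 201229406, plus strand), its close relative, drew 2 and 6 counts from the siNC libraries and 4 and 7 from the siCBX3 libraries. The groups overlapped, CASP10 did not pass the count filter, and no fold change is given at this depth.

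Among the 7 tested genes, CFLAR had the largest rise. CFLAR (chromosome 2, 201116104 to 201176687, plus strand) drew 3883 and 4049 counts from the siNC libraries and 6372 and 6988 from the siCBX3 libraries, or 103 and 96.1 CPM against 181 and 184 CPM. The lowest siCBX3 library was far above the highest siNC library. The log2 fold change was 0.87 (SE 0.07, 95% interval 0.72 to 1.03, adjusted p 6.9e-10, edgeR), and 91.0% of all tested genes had a value as low or lower. Features that share exon bases with CFLAR were higher as well. CFLAR-AS1, on the opposite strand, drew 338 and 385 counts from the siNC libraries and 679 and 721 from the siCBX3 libraries (log2 fold change 1.08, SE 0.11, adjusted p 1.47e-08, edgeR). AC007283.5, which lies wholly within CFLAR exons on the same strand, had a log2 fold change of 1.11 (adjusted p 3.93e-06, edgeR). IMPDH1P10, a feature on the opposite strand with 96.5% of its exon bases under CFLAR, had 0.67 (adjusted p 0.0166, edgeR), a call lost without siNC replicate 2 (adjusted p 0.194), with DESeq2 (0.0790) and on RPKM plus 1 (0.0561) or plus 0.1 (0.0597). These features share 777, 445 and 1488 of the 22529 exon bases of CFLAR. All exon bases of AC007283.5 are also CFLAR exon bases. It nevertheless drew 133 and 139 counts from the siNC libraries and 237 and 302 from the siCBX3 libraries. Reads in shared bases were thus counted for AC007283.5, and its rise is not an observation separate from that of CFLAR. How far such reads also enter the count of CFLAR, or the counts of the features on the opposite strand, was not tested.

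XIAP (chromosome X, 123859724 to 123913979, plus strand), which encodes an inhibitor of caspase-9 and of effector caspases, stood at 20.1 and 21.9 CPM in siNC and at 30.1 and 31.5 CPM in siCBX3. The groups were separated by more than the spread within either. XIAP rose by 0.55 on the log2 scale (SE 0.09, 95% interval 0.36 to 0.75, adjusted p 2.57e-05, edgeR), and by 0.35 on log2 RPKM plus 1. It shares no exon bases with another feature.

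**Figure D2:**
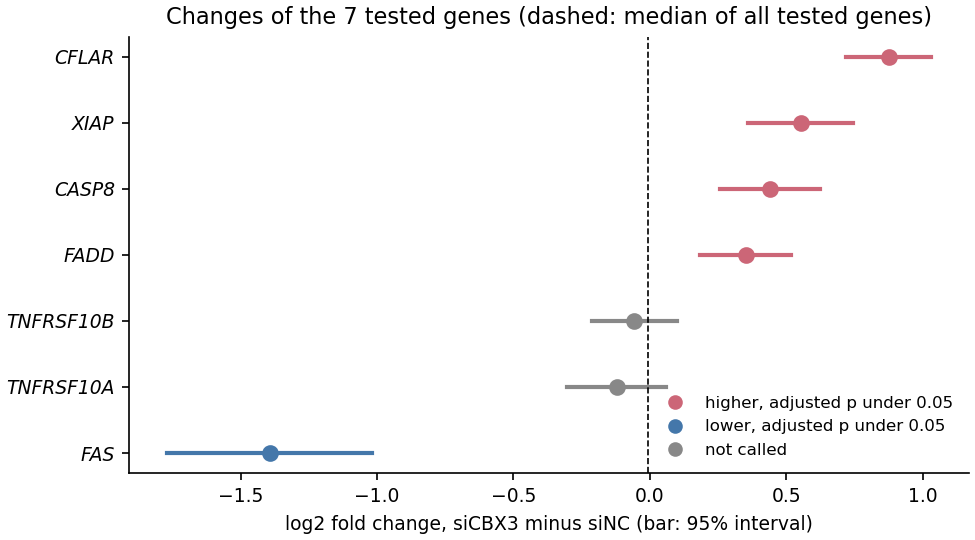
Log2 fold changes (horizontal axis, siCBX3 minus siNC) of the 7 tested genes with 95% intervals from the edgeR fit. The intervals of CFLAR, XIAP, CASP8 and FADD lie above 0, that of FAS lies below -1, and those of TNFRSF10A and TNFRSF10B span 0 and the dashed median of all tested genes (-0.01).

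Levels can be compared between genes only per exon length, for which the deposited RPKM values serve (reads scaled to exon length and library size). In mean RPKM over the 4 libraries the order was FADD (47.2), TNFRSF10B (20.1), TNFRSF10A (11.6), CFLAR (6.21), CASP8 (4.70), XIAP (2.85), FAS (1.20) and CASP10 (0.0162). The range over libraries of each gene in the first 3 places stayed clear of its neighbours in the order. CFLAR and CASP8 overlapped over the 4 libraries and nearly touched in siNC, where CFLAR had 4.62 and 4.46 RPKM and CASP8 3.803 and 4.42 RPKM. In siCBX3 CFLAR had 7.75 and 8.01 RPKM and CASP8 5.18 and 5.38 RPKM. FAS and XIAP were next to each other in siNC, at 1.94 and 1.58 RPKM for FAS and 2.24 and 2.53 RPKM for XIAP. In siCBX3 they stood further apart, at 0.635 and 0.634 RPKM for FAS and 3.22 and 3.41 RPKM for XIAP. Among all tested genes, FADD ranked at percentile 95.3 by RPKM and FAS at percentile 34.2. The length of CFLAR, 22529 bases, counts every annotated exon of its many transcripts, which lowers its RPKM relative to a gene of simpler structure.

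**Figure D3:**
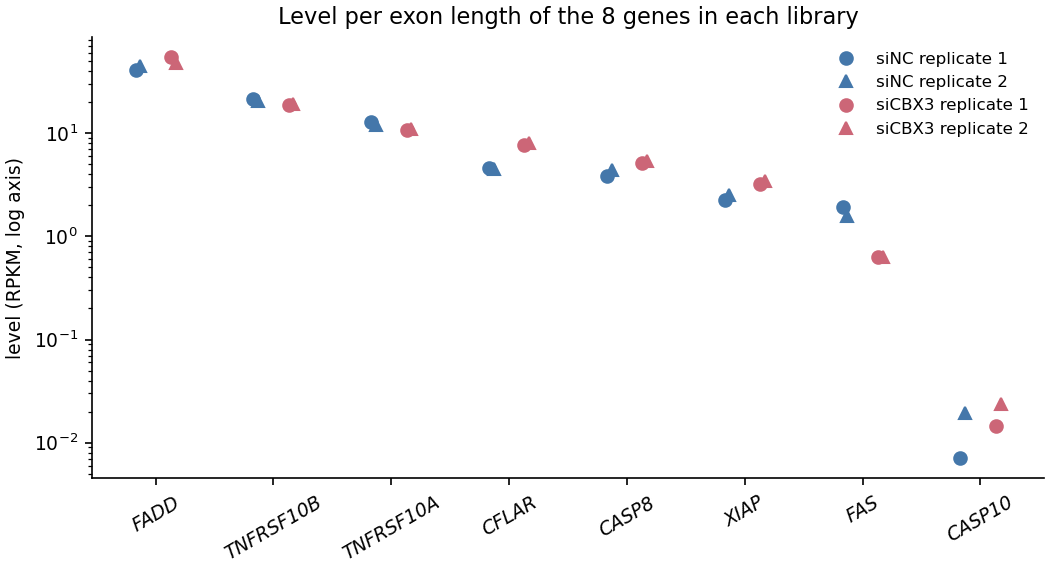
Deposited RPKM values (vertical log axis) of the 8 genes in each library, in order of their mean level; circles are replicate 1 and triangles replicate 2. FADD leads at 40.9 to 54.9 RPKM, the siNC and siCBX3 points of FAS and CFLAR stand apart in opposite directions, and CASP10 lies below 0.03 RPKM in every library.

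The ratio of CFLAR to CASP8 sets the level of the inhibitor against that of the protease it resembles. It was 1.21 and 1.01 in siNC and 1.49 in both siCBX3 libraries (1.494 and 1.488). The siCBX3 ratios were higher than both siNC ratios, by 1.35-fold on average. An exact two-sided permutation test gave p = 0.333, the smallest that 2 against 2 libraries allow. The ratio itself depends on the exon lengths used, but its change between the groups does not. For the TRAIL receptors, the decoy genes TNFRSF10C and TNFRSF10D, whose products bind TRAIL without a working death domain, were set against TNFRSF10A and TNFRSF10B. This ratio was 0.0802 and 0.0818 in siNC and 0.0841 and 0.0875 in siCBX3 (exact two-sided permutation p = 0.333). The signalling receptor genes together had higher levels than the decoys in every library, and the ratio differed 1.06-fold between the groups.

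The bases before the annotated start are shown for the 4 genes that rose and for FAS, which fell, so that the promoters of genes moving in different directions can be compared. RefSeq (GRCh38.p14) gave a window for 5 of the 8 genes, and for each the start nearest to the beginning of the gene in the count table was used. For CFLAR that start, 201118716, lies well inside the gene, which begins at 201116104 in the count table. It also lies inside the gene for FAS (88990798, gene from 88990582), FADD (70203296, from 70203163) and CASP8 (201233463, from 201233443). No sequence is shown for TNFRSF10A, TNFRSF10B and CASP10. Of the 250 bases before that start, the part outside every annotated exon is printed, on the plus strand; for CFLAR, where nearly all of the window is exonic, 30 bases around a match are given. Capitals mark matches to the motifs searched on both strands, which were the GC box GGGCGG, the E-box CACGTG, the AP-1 site TGANTCA and the NF-kB consensus.
FAS, chr10:88990548-88990581: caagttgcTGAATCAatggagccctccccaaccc
FADD, chr11:70203046-70203162: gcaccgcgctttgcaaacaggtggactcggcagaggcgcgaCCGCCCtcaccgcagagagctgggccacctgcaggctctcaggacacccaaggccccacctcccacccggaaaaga
CASP8, chr2:201233213-201233442: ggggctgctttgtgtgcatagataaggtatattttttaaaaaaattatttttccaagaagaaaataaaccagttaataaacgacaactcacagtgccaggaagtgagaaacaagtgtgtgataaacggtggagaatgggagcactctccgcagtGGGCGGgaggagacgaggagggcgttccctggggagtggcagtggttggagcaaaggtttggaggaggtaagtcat
CFLAR, chr2:201118609-201118638: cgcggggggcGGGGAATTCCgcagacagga
XIAP, chrX:123859458-123859707: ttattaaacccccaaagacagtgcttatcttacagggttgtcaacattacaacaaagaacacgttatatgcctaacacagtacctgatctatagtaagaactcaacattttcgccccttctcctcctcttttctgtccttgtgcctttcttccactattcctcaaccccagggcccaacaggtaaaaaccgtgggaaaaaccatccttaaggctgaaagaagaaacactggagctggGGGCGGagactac

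All 5 windows of 250 bases held at least 1 GC box, which 42.6% of 35116 promoters of that length also hold. CFLAR was the only one of the 5 with an NF-kB match, found in 5.2% of all promoters, and FAS the only one with an AP-1 match, found in 6.6%. None of the 5 held an E-box, found in 6.3%. The NF-kB match of CFLAR begins at position -97 from the start and shares its first bases with a GC box at position -101, of which the first letters are left in lower case. This NF-kB match lies within an annotated exon. Base composition did not follow direction: GC content was 62.8% for FAS and, among the genes that rose, 68.8% for FADD, 58.8% for CFLAR, 45.6% for CASP8 and 44.8% for XIAP, against a median of 58.0% over all promoters. The numbers of CpG pairs were 14 for FAS, 32 for FADD, 17 for CFLAR, 6 for CASP8 and 4 for XIAP, with a median of 11. A match of letters describes the sequence and is not evidence of binding, and no binding was measured here.

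The 8 genes include a pair of gene clusters, and the neighbours show whether a change was shared along the chromosome. On chromosome 2, CFLAR, CASP10 and CASP8 follow one another on the plus strand within 171.6 kb, with 6194 bases between CFLAR and CASP10 and 4037 between CASP10 and CASP8. CFLAR and CASP8 rose while CASP10, between them, stayed near 0. The nearest feature before CFLAR with at least 10 counts in any library, NDUFB3, a respiratory chain gene 30354 bases away, fell by 0.47 on the log2 scale (adjusted p 5.25e-05, edgeR). ALS2CR12, which lies 560 bases beyond CASP8, had 18 to 26 counts and was not called (adjusted p 0.808, edgeR). On chromosome 8, the 4 TRAIL receptor genes lie within 205.0 kb, and none of them was called by edgeR. TNFRSF10C had a log2 fold change of 0.03 (adjusted p 0.867, edgeR; -0.05 with library totals). TNFRSF10D had 14 counts in each siNC library and 4 and 8 in siCBX3, with -1.09 and an SE of 0.63 (adjusted p 0.164, edgeR). CHMP7, an ESCRT membrane repair gene 18511 bases beyond TNFRSF10A, rose by 0.49 on the log2 scale (adjusted p 1.38e-05, edgeR). Near XIAP, the mRNA export gene THOC2 fell by 0.41 (adjusted p 3.87e-05, edgeR), 126668 bases away.

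Other genes of the route were read from lists by role. Outside the 8 genes, 95 pathway genes were listed and 81 tested, of which 31 rose, 12 fell and 38 were not called. The share called, 53.1%, was near the 48.4% of all genes tested. Of all genes tested, 24.4% rose and 24.0% fell. The lists were chosen with earlier results of these data known, and the difference in direction was not tested, so no conclusion is drawn from it. Their median log2 fold change was 0.13, against -0.01 over all genes tested. The plot of tested pathway genes by role shows them side by side with the 8 genes.

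**Figure D4:**
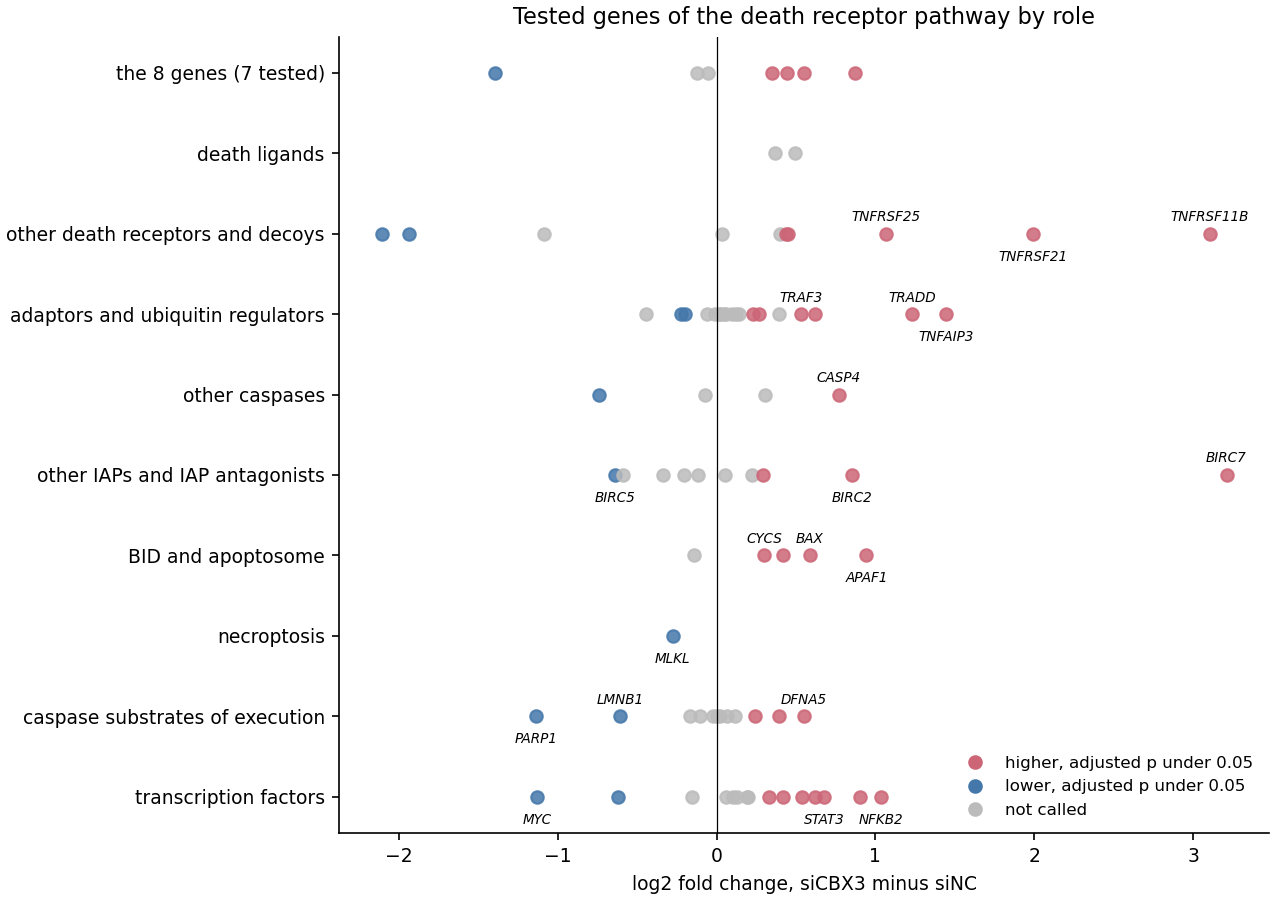
Log2 fold changes (horizontal axis, siCBX3 minus siNC) of the tested genes in each list, 1 dot per gene, without 3 genes that are not reported here, red where called higher, blue where called lower and grey where not called (edgeR). The lists of receptors and caspases hold called genes on both sides of 0, with TNFRSF11B at 3.10 and CASP2 at -0.74. In the BID and apoptosome list, 4 of the 5 genes are called higher, against 24.4% of all genes tested.

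Most ligand genes had few counts. FASLG had 0 to 3 counts per library, TNF 0 to 2 and TNFSF10, the gene of TRAIL, 4 to 8. LTB, the gene of lymphotoxin beta, was the exception, at 1.17 and 1.37 RPKM in siNC and 1.41 and 1.70 RPKM in siCBX3. Of 7 ligand genes 2 passed the count filter, LTB and TNFSF12, and 0 were called by edgeR, with 0 at an unadjusted p under 0.05 and 0 by DESeq2 or limma-voom. Other receptors and decoys rose in 5 of 10 tested members and fell in 2 (all genes tested: 24.4% and 24.0%). Their median log2 fold change was 0.42. TNFRSF21 (DR6), a death receptor with known roles in neurons, rose from 11.9 ± 0.442 to 47.3 ± 2.96 CPM (adjusted p 1.48e-14, edgeR). TNFRSF25 (DR3) rose from 14.4 ± 3.41 to 30.1 ± 0.0990 CPM. TNFRSF11B, which encodes osteoprotegerin, a secreted protein that binds RANK ligand and TRAIL, rose from 1.77 ± 0.179 to 15.3 ± 0.939 CPM. The 2 receptor genes that fell, NGFR (-2.11) and TNFRSF1B (-1.93), were named after their values were seen, and TNFRSF1B had 2 to 20 counts per library. The count of falling receptors was 1 without siNC replicate 1 or siCBX3 replicate 2, with DESeq2, on RPKM plus 1 and when genes averaging under 50 counts were dropped.

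Adaptors and ubiquitin regulators were mostly not called: of 19 tested, 6 rose, 2 fell and 11 did not pass. Among all genes tested, 24.4% rose and 24.0% fell. The median of the list was 0.10. TNFAIP3 (A20), an inhibitor of tumour necrosis factor signalling, rose from 17.9 ± 1.89 to 48.7 ± 6.09 CPM (adjusted p 1.88e-11, edgeR). The adaptor gene TRADD rose by 1.23 on the log2 scale and TRAF3 by 0.53. FAF1 (-0.23) and CUL3 (-0.20) fell, also named after their values were seen. The count of 2 went to 1 without siNC replicate 1 and to 0 without either siCBX3 replicate or without the count filter. RIPK1, likewise chosen after its value was seen and the kinase between survival and death signalling, had a log2 fold change of 0.10 (adjusted p 0.340, edgeR).

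Among other caspase genes, CASP4, of the inflammatory group, rose by 0.77 on the log2 scale (SE 0.11, adjusted p 1.93e-06, edgeR). CASP2, named after its value was seen, fell by 0.74 (SE 0.15, adjusted p 0.000334, edgeR). CASP9, the initiator of the mitochondrial route, had a log2 fold change of -0.07 (95% interval -0.48 to 0.33, adjusted p 0.783, edgeR) and CASP6 had 0.30 (adjusted p 0.0902, edgeR). Neither of the latter was called, and the libraries of the groups overlapped for both.

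Inhibitors of apoptosis other than XIAP, with their antagonists, rose in 3 of 10 tested and fell in 1 (all genes tested: 24.4% and 24.0%). Their median was -0.03. BIRC2 (cIAP1), a ubiquitin ligase of the receptor complex, rose from 41.4 ± 2.18 to 74.7 ± 6.48 CPM (0.85, SE 0.08, adjusted p 9.62e-09, edgeR). BIRC7 was called on few counts, with 6 and 2 for siNC against 38 and 32 for siCBX3. BIRC5 (survivin), also a mitotic gene, fell by 0.64 on the log2 scale. The XIAP antagonist genes DIABLO (-0.11, adjusted p 0.274) and HTRA2 (0.22, adjusted p 0.115) were not called by edgeR and were also chosen with their values in view. In the mitochondrial arm, 4 of 5 genes rose and 0 fell (all genes tested: 24.4% and 24.0%), with a median of 0.42. APAF1, the scaffold of the apoptosome, rose by 0.94, BAX by 0.59 and CYCS by 0.30. BID, the caspase-8 substrate that links both routes, rose by 0.42.

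In necroptosis, the form of death that caspase-8 restrains, RIPK3 and ZBP1 had at most 4 counts in any library and were not tested. MLKL, its executor, fell by 0.28 on the log2 scale (adjusted p 0.00761, edgeR), a call lost without siCBX3 replicate 1 (adjusted p 0.0602) or siCBX3 replicate 2 (0.0548). Of 12 caspase substrates, 3 rose and 2 fell (all genes tested: 24.4% and 24.0%), with a median of 0.01. PARP1 had the largest change, from 450 ± 7.80 to 205 ± 3.96 CPM (adjusted p 3.27e-12, edgeR), and LMNB1 fell by 0.61 while DFNA5 (GSDME) rose by 0.55. On RPKM plus 1 or plus 0.1 (limma), 0 of the substrates were called higher.

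Transcription factors known from other work to act on these promoters rose in 8 of 16 tested members and fell in 2. Among all genes tested, 24.4% rose and 24.0% fell. The median of the factors was 0.27, and 5 rose on RPKM plus 1 or plus 0.1 (limma). NFKB2 rose from 88.9 ± 0.257 to 182 ± 8.95 CPM and STAT3 by 0.68 on the log2 scale. MYC fell from 9.33 ± 0.541 to 4.26 ± 0.470 CPM. DDIT3 (CHOP), known to act on TNFRSF10B and named after its value was seen, rose by 0.90 (adjusted p 2.51e-06, edgeR). Whether any of these factors bears on the 8 genes was not tested.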

How the data were processed

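Stranded mRNA libraries (per the labels) of 143B cells were compared, 2 siNC against 2 siCBX3. The authors deposited raw read counts per gene and RPKM values per library, per the file headers. Per the submitters' processing notes, Trimmomatic 0.36, STAR 2.5.3a, featureCounts of Subread 1.5.1 and build GRCh38 were used. Not given in the sources used here are how strand and multiply assigned reads were handled, which annotation release was used, and whether duplicate reads were removed. Dividing the counts by exon length and by the column total returned the deposited RPKM values, with relative differences of 3.8e-07 or less. Coordinates are those of the count table.

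Counts were fitted in R 4.3.3 with edgeR 4.0.16 after filterByExpr (minimum count 10, minimum total 15), with TMM factors. The quasi-likelihood test had group as the only term and covered 20999 genes, with Benjamini-Hochberg adjustment over all of them. It had 2 residual degrees of freedom and 22 prior ones, which come from the spread of all genes. The p-values and intervals therefore rest largely on variance shared between genes. Each standard error was obtained from the fold change and its F statistic. Alternatives used DESeq2 1.42.0, limma 3.58.1 (voom, and log2 RPKM plus 1 or 0.1), other scalings and filters, a replicate block, and leaving out each library. The fit was tested on simulated data, with changes placed in genes averaging at least 10 counts. It recovered 9 of 50 changes of 1.25-fold and 29 of 50 of 1.5-fold. At 2-fold it recovered 33 of 50 and at 4-fold 48 of 50. Of 123 calls, 4 were false. Small changes were thus often missed in the simulation. These changes were placed among 20459 genes, a far smaller share than the 48.4% called in the data. The Benjamini-Hochberg threshold was therefore stricter in the simulation. Its recovery and false calls do not measure those of this comparison. Figures used Python 3.11.15 and matplotlib 3.10.9.

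Genes named were the 8 genes, CBX3, up to 3 called genes of each list with the smallest adjusted p and no overlap between groups, genes that share exon bases with the 8, and genes beside them; some are not reported here. Other list genes named (the ligands, BID, CASP2, CASP6, CASP9, RIPK1, RIPK3, ZBP1, DIABLO, HTRA2, FAF1, CUL3, NGFR, TNFRSF1B and DDIT3), and the marker genes named, were picked outside this rule after their values were seen. Members and lists were chosen with earlier results of these data known. Promoter windows came from RefSeq and exons from the count table and GENCODE 29. Reads copied from the same molecule are not independent, so the errors cover counting and the spread of these libraries only.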

Additional observations from a re-analysis of the deposited data

How the results depend on the processing

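The directions of all 7 tested genes held in all 14 alternatives, and FAS, CFLAR, CASP8 and XIAP were called in each. The log2 fold change of FAS lay between -1.56 and -1.21 on counts and reached -0.75 on log2 RPKM plus 1, where the added 1 shrinks low genes. CFLAR lay between 0.68 and 0.93, XIAP between 0.35 and 0.62 and CASP8 between 0.30 and 0.53. FADD was called in 11 of 14 and lost its call on RPKM plus 1 (0.26, adjusted p 0.0572), on RPKM plus 0.1 (0.27, adjusted p 0.0556) and without siCBX3 replicate 1; over the 4 fits without 1 library it lay between 0.24 and 0.45, and the cause was not tested. TNFRSF10A and TNFRSF10B were called in 0 of 14 (adjusted p 0.0667 to 0.712 and 0.1251 to 0.951). At 2 to 14 counts per library, CASP10 and TNFRSF10D allow no statement on a change.

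Replicate numbers are shared by the groups, but deviations of the replicate 1 libraries had a correlation of 0.0287 across genes, so the numbers are not taken as pairs. With the replicate as a block, 10630 genes were called against 10173 without it, and FAS, FADD, CASP8, CFLAR and XIAP stayed past the threshold while TNFRSF10A and TNFRSF10B did not.

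Signs turned in 7 neighbouring or overlapping genes, none of them called. TNFRSF10C had -0.0452 with library totals, -0.0121 with the upper quartile, -0.0331 on RPKM plus 1 and -0.0444 on RPKM plus 0.1. STAMBPL1, next to FAS, had 0.03 in the fit reported here and -0.0497, -0.0150, -0.0350 and -0.0439 under those 4 settings. Without 1 library, log2 fold changes lay between -0.00372 and 0.0726 for TNFRSF10C, -0.0486 and 0.118 for STAMBPL1, -0.19 and 0.16 for RP11-1149O23.2 (0.0480 without siCBX3 replicate 1), -0.24 and 0.0312 for RP11-1149O23.3 (0.0228 without siNC replicate 1), -1.07 and 0.28 for RP11-875O11.3 (0.12 without siNC replicate 1), -0.13 and 0.0306 for PPFIA1 and -0.16 and 0.52 for ALS2CR12.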
